A study of Mus musculus with 2 samples.

Results

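The genes described here are 10 genes of the smooth muscle contractile apparatus: the actins *Acta2*, *Actg2* and *Actc1*, the thin filament genes *Tagln*, *Cnn1*, *Lmod1* and *Tpm2*, the myosin genes *Myh11* and *Myl9*, and the intermediate filament gene *Des*. They are 10 of the 32285 genes counted in lung cells that hold retinoids. The cells were sorted as UV-positive, by their own emission at 455 nm, from digested lungs of wild type C57BL/6 (*Lrat*+/+) male mice aged 3 months. They were run on separate occasions as 2 libraries, called library 1 and library 2, which share a single condition, and the number of mice behind each library is not given in the sources used here. All 10 were found in both libraries by their gene symbols. The genes were selected on their levels in cell groups of these libraries, where *Tagln* and *Acta2* differed in the order of the groups, so that the levels of the 10 genes across those groups are given as a description, with no test.

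Contractile force in smooth muscle comes from myosin pulling on actin filaments. Smooth muscle alpha actin (*Acta2*) forms the filament, calponin (*Cnn1*), transgelin (*Tagln*, also called SM22), tropomyosin (*Tpm2*) and leiomodin (*Lmod1*) bind it, smooth muscle myosin heavy chain (*Myh11*) is the motor, and its regulatory light chain (*Myl9*) switches it on when phosphorylated. Desmin (*Des*) ties the filaments to the rest of the cell. *Acta2* is also widely used as the marker of myofibroblasts, and *Tagln* is often read as its companion. The lung holds these transcripts in airway and vascular smooth muscle, in pericytes, and at lower levels in fibroblasts.

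Cells were placed in groups by transcripts other than the 10 genes. Of 19719 barcodes, 19622 passed limits of 200 or more genes and no more than 10% of UMIs (unique molecular identifiers, which count captured transcripts) from mitochondrial genes. Of these, 15555 had no UMI of *Cdh5*, *Pecam1*, *Epcam* or *Ptprc*. Mural cells had at least 2 UMIs of *Notch3*, *Cox4i2* and *Higd1b* in sum, and numbered 9 in library 1 and 47 in library 2. Fibroblasts had at least 3 UMIs of *Col1a2*, *Mfap4* and *Pdgfra*. Among them, cells with at least 2 UMIs of *Hhip* and *Aspn* formed the Hhip/Aspn group (239 and 521 cells), cells of the rest with at least 3 UMIs of *Dcn* formed the adventitial group (862 and 794 cells), and cells with no *Dcn* and at least 3 UMIs of *Tcf21*, *Npnt* and *Itga8* formed the alveolar group (5548 and 5105 cells). A further 1006 and 791 fibroblasts met none of these rules. Levels are CPM, the UMIs of a gene divided by all UMIs of its group in that library and scaled to counts per 1000000. Intervals are 95% counting intervals (exact Poisson for a level, Clopper-Pearson for a share of cells) and cover counting error only.

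Library 2 was the deeper one, with a median of 7577.5 UMIs per kept cell against 4480.0 in library 1, and 23 barcodes were listed in both libraries. Marker lists bore out the group names in part only. A list of 12 pericyte genes summed to 4325 and 4202 CPM in mural cells and to between 131 and 665 CPM in the other groups, but not all of its genes led there. *Rgs5*, a usual pericyte marker, had no UMI in mural cells of either library, and *Kcnj8*, *Abcc9* and *Lamc3* were higher in Hhip/Aspn cells of both libraries, *Kcnj8* at 153 and 77.9 CPM against 24.6 and 24.2 CPM in mural cells. Mural cells also held 8159 and 8597 CPM of a list of 10 alveolar fibroblast genes, which stood at 11633 and 11084 CPM in the alveolar group. Only 3 of 9 and 19 of 47 mural cells had fewer than 3 UMIs of *Col1a2*, *Mfap4* and *Pdgfra*, so most also met the fibroblast threshold. The list of 8 ductal or peribronchial fibroblast genes was at 274 and 140 CPM in the Hhip/Aspn group and at 279 and 211 CPM in the adventitial group, so the Hhip/Aspn group is called by its rule. The list of 10 adventitial genes was at 8302 and 6111 CPM in adventitial cells and at 3451 and 2566 CPM in alveolar cells, but at 10002 CPM in Hhip/Aspn cells of library 1. *Pi16*, which marks adventitial fibroblasts, was higher in Hhip/Aspn cells (374 and 56.0 CPM) than in adventitial cells (138 and 20.6 CPM). Adventitial cells also held 7999 and 7912 CPM of the alveolar list, so the name adventitial stands here for the *Dcn* rule. A list of 6 epithelial genes was at 3464 and 731 CPM in alveolar cells, 443 and 154 CPM in adventitial cells and 2559 and 329 CPM in Hhip/Aspn cells, and was thus higher in alveolar than in adventitial cells, as *Tagln* was. Epithelial cells of the same libraries, chosen to hold no UMI of the fibroblast or mural rule genes, held 1.18 and 2.55 CPM of *Tagln*. The cardiac gene *Myh6* had no UMI in any group, and a list of 5 mesothelial genes reached at most 13.1 CPM. The part of the other marker transcripts in the levels below was not tested.

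*Tagln* was found at high levels in alveolar fibroblasts, in contrast to *Acta2*. It reached 621 CPM in library 1 (95% interval 611 to 631) and 582 CPM in library 2 (574 to 590) in this group. It was at 90.1 and 99.9 CPM in adventitial cells, which is 6.89 and 5.83 times lower than in alveolar cells. It was at 117 and 329 CPM in Hhip/Aspn cells, and at 541 and 2758 CPM in mural cells. On the log2 scale, adventitial over alveolar *Tagln* was −2.66 ± 0.17 (SD, n = 2 libraries) and Hhip/Aspn over alveolar was −1.62 ± 1.12. Both ratios were negative in both libraries. Mural over alveolar was 1.02 ± 1.73, and its sign differed between libraries, at −0.20 in library 1 and 2.24 in library 2.

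*Acta2* ran in the other direction between Hhip/Aspn and alveolar fibroblasts. It had its lowest level in alveolar cells, at 29.6 CPM (27.4 to 31.9) in library 1 and 59.3 CPM (56.8 to 61.9) in library 2. It was at 78.4 and 60.9 CPM in adventitial cells, 107 and 276 CPM in Hhip/Aspn cells, and 565 and 2748 CPM in mural cells. The mural level of library 1 came from 4 of 9 cells, with 15 of its 23 UMIs in 1 cell. The log2 ratio of Hhip/Aspn over alveolar cells was 2.04 ± 0.25 (SD, n = 2 libraries), and that of mural over alveolar cells was 4.90 ± 0.90. Adventitial over alveolar was 0.72 ± 0.97. The counting intervals of these 2 groups lay apart in library 1 (71.0 to 86.3 CPM against 27.4 to 31.9 CPM). In library 2 they overlapped (55.8 to 66.2 CPM against 56.8 to 61.9 CPM). The mean ratio was smaller than its SD, so the 2 libraries do not settle whether adventitial and alveolar cells differ. The order of the groups for *Acta2* was the same in both libraries, whereas for *Tagln* the alveolar and mural groups changed places.

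The ratio of the UMIs of one gene to the other set the alveolar group apart. For each UMI of *Acta2* there were 21.0 and 9.82 UMIs of *Tagln* in alveolar cells of library 1 and library 2. The same ratio was 0.957 and 1.004 in mural cells, 1.09 and 1.19 in Hhip/Aspn cells, and 1.15 and 1.64 in adventitial cells. Of the 23 mural *Acta2* UMIs of library 1, 15 came from 1 cell. Cells with at least 2 UMIs of *Myh11*, *Cnn1*, *Actg2* and *Actc1* in sum weighed on the ratios of library 2. Outside them, *Tagln* and *Acta2* there were at 414 and 145 CPM in mural and at 219.5 and 128 CPM in Hhip/Aspn cells. Alveolar cells outside them had 576 and 47.7 CPM. The ratio was compared only between groups, since UMIs of different genes may be captured with unequal efficiency. The fibroblasts in no group lay between, at 345 and 332 CPM of *Tagln* and 42.8 and 79.2 CPM of *Acta2*.

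**Figure D1:**
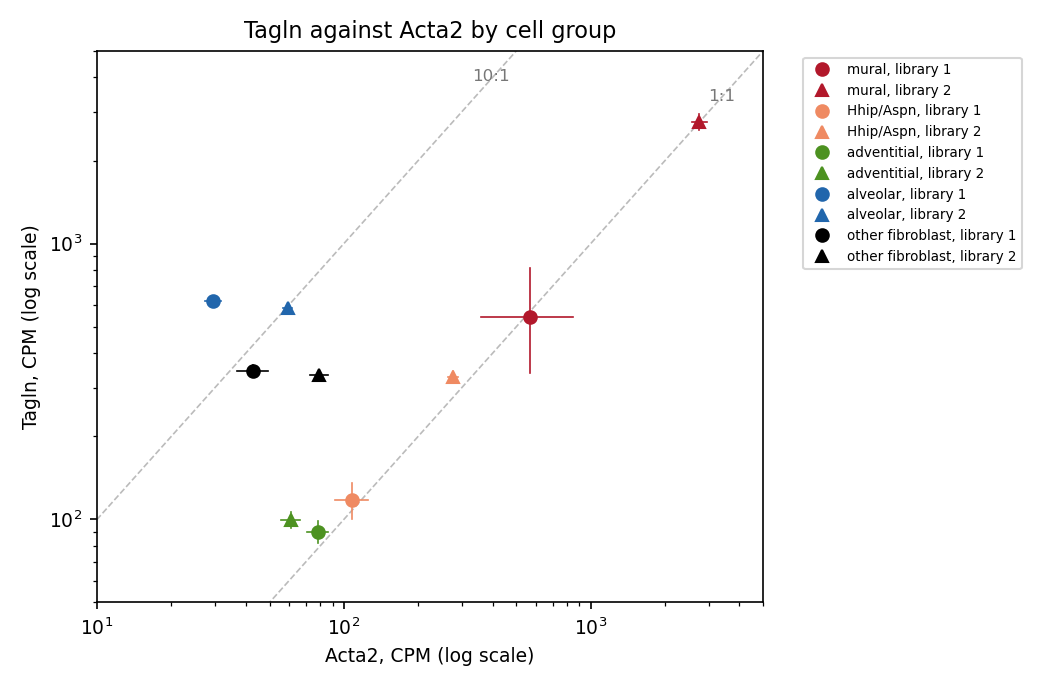
Level of *Tagln* (y axis, CPM, log scale) against *Acta2* (x axis, CPM, log scale), with 1 point per cell group and library, counting intervals of 95% as bars, and dashed lines where *Tagln* equals *Acta2* or is 10 times as high. Mural, Hhip/Aspn and adventitial points lie near the 1:1 line, and the alveolar points lie at ratios of 21.0 and 9.82. The mural point of library 1 rests on 22 and 23 UMIs of *Tagln* and *Acta2*.

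The share of cells with a UMI was compared after each cell was thinned to 2000 UMIs, which leaves out shallower cells. *Tagln* was then detected in 49.9% of 4978 alveolar cells of library 1 (48.5% to 51.3%) and in 51.3% of 5076 of library 2 (49.9% to 52.7%). Without thinning these shares were 61.6% and 73.2%. In adventitial cells the thinned share was 10.1% in both libraries, and in Hhip/Aspn cells it was 13.4% and 27.8%. *Acta2* was detected in 4.36% and 5.65% of thinned alveolar cells, 9.11% and 8.06% of adventitial cells, and 11.8% and 11.1% of Hhip/Aspn cells. Endothelial, epithelial and immune cells of the same libraries served as the background. They had at least 2 UMIs of their own lineage genes and none of the other lineages or of the fibroblast and mural rule genes. Barcodes with those fibroblast transcripts were thus left out beforehand, so these cells may understate the background. Thinned shares in them were 0% to 5.26% for *Tagln* and 0% to 1.33% for *Acta2*, at median depths of 1899.5 to 13580.5 UMIs. The highest of these background shares was 1 of 19 endothelial cells of library 1, whose interval runs to 26.0%. *Tagln* levels in these cells were 1.18 to 21.6 CPM. The alveolar shares of *Acta2*, whose lower bounds were 3.81% and 5.03%, lay above each background share of that gene, though the widest background interval ran to 17.6%.

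*Tagln* in alveolar cells was spread over many cells. Its UMIs came from 3417 of 5548 cells in library 1 and 3736 of 5105 cells in library 2, and it took 626 and 664 cells to hold 50% of them. The cell with the most *Tagln* held 0.425% and 0.821% of the UMIs. *Acta2* was held by 400 and 693 alveolar cells, of which 82 and 50 held 50% of the UMIs. In library 2, 1 alveolar cell alone held 302 of the 2084 *Acta2* UMIs, or 14.5%.

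Detection of the genes was compared within thinned cells. Among alveolar cells *Acta2* was seen in 4.18% of cells with *Tagln* and in 4.53% of cells without it in library 1, and in 6.80% and 4.45% of them in library 2. The same shares were 18.8% and 10.7% in Hhip/Aspn cells of library 1, 16.6% and 9.04% in those of library 2, 16.5% and 8.29% in adventitial cells of library 1, and 11.2% and 7.70% in those of library 2. *Acta2* was thus seen more often in cells with *Tagln* in each case but alveolar cells of library 1, which was not tested. Across the thinned cells of a group, rank correlations between pairs of *Acta2*, *Tagln*, *Tpm2*, *Myl9* and *Des* lay between −0.09 and 0.15, which in counts this sparse is no finding.

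*Dcn*, which encodes the matrix proteoglycan decorin, is one of the transcripts that set the alveolar and adventitial rules, so the change of *Tagln* along it describes the groups and is not an independent observation. Fibroblasts outside the Hhip/Aspn group were thinned to 2000 UMIs. *Tagln* was at 608 and 568 CPM in those with no *Dcn* UMI in library 1 and library 2. It was at 335 and 306 CPM at 1 UMI of *Dcn*, at 76.9 and 130 CPM at 2 UMIs, at 90.9 and 64.9 CPM at 3 to 4, at 117 and 39.0 CPM at 5 to 9, and at 34.4 and 35.4 CPM at 10 UMIs or more. The fall was thus steady in library 2, and in library 1 levels from 2 to 9 UMIs did not fall further. *Acta2* gave no common course, with 29.6 and 48.7 CPM at no *Dcn* UMI and 125 and 25.3 CPM at 10 or more, the last from 40 and 5 UMIs. *Des* followed *Tagln*, from 70.8 and 59.5 CPM to 25.0 and 5.05 CPM, again from few UMIs in the last class (8 and 1).

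**Figure D2:**
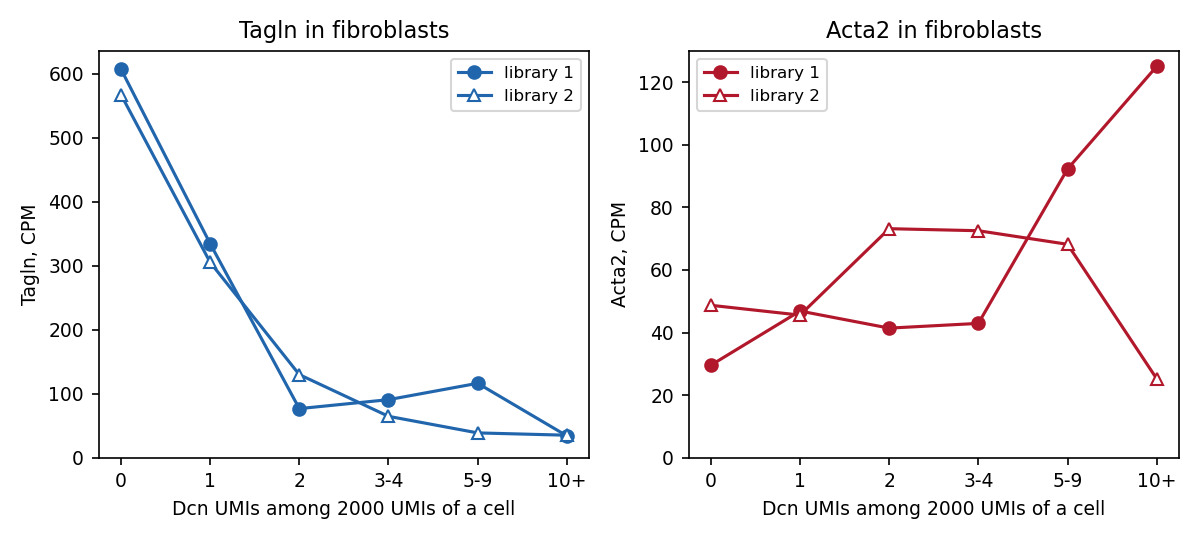
Level of *Tagln* (left) and *Acta2* (right) in CPM on linear axes against the number of *Dcn* UMIs among the 2000 UMIs of a cell. Cells are thinned fibroblasts outside the Hhip/Aspn group. Filled circles mark library 1 and open triangles library 2. *Tagln* lies at 608 and 568 CPM without *Dcn* and at 34.4 and 35.4 CPM at 10 or more UMIs, whereas *Acta2* follows no common course.

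Cells just inside and just outside the rules did not differ in the same way in both libraries at every threshold. The classes by *Dcn* and by alveolar genes leave out the Hhip/Aspn group. Unthinned fibroblasts with 2 UMIs of *Dcn*, just outside the adventitial rule, had 215 and 241 CPM of *Tagln*. Those with 3 UMIs, just inside it, had 79.7 and 205 CPM. At no *Dcn*, cells with 3 UMIs of *Tcf21*, *Npnt* and *Itga8* had 561 and 2278 CPM of *Tagln* (127 and 12 cells), and those with 2 UMIs had 772 and 200 CPM (104 and 11 cells). Fibroblasts with 1 UMI of *Hhip* and *Aspn* had 270 and 323 CPM of *Tagln*, and those with 2 UMIs had 139 and 233 CPM. Cells with 1 UMI of the mural genes had 97.9 and 166 CPM of *Acta2*, and those with 2 UMIs had 334 and 94.7 CPM, from 3 and 12 cells.

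The other actins were low in adventitial and alveolar cells. *Actg2*, the gamma actin of visceral smooth muscle, had no UMI in mural cells of library 1, where 3 UMIs would amount to 73.7 CPM, and was at 132 CPM in those of library 2. It was at 0.647 and 17.7 CPM in Hhip/Aspn cells and at most 0.568 CPM in the adventitial and alveolar groups. *Actc1*, the alpha actin of heart muscle, was likewise not detected in mural cells of library 1 and stood at 287 CPM in library 2, with 1.29 and 18.7 CPM in Hhip/Aspn cells and at most 0.825 CPM in the remaining groups.

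The actins are close paralogs, which raises the question of whether their reads can be told apart. The first 60 coding bases of each are shown, with capitals in *Actg2* and *Actc1* for bases that differ from *Acta2* in an alignment of the coding sequences (transcripts Acta2-201, Actg2-201 and Actc1-201 of GENCODE M21). A gap of 3 bases in *Actg2* is left out of its row, so the bases after it are shifted against the *Acta2* row. *Actg2* shares 84.2% and *Actc1* 82.5% of the aligned coding bases with *Acta2*. In the last 300 bases of the transcripts, where a 3′ library takes most of its reads, the longest run that either shares with *Acta2* is 8 bases.
Acta2: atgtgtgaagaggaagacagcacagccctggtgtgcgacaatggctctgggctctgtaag
Actg2: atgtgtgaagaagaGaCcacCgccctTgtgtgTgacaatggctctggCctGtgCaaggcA
Actc1: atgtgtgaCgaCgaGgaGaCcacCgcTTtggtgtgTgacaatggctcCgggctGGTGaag

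On GRCm38, *Actg2* (ENSMUSG00000059430) lies on chromosome 6 from 83512905 to 83536265 and *Actc1* (ENSMUSG00000068614) on chromosome 2 from 114047282 to 114053548, both on the minus strand. *Acta2* (ENSMUSG00000035783) lies on chromosome 19 from 34241090 to 34255590 on the minus strand, and *Tagln* (ENSMUSG00000032085) on chromosome 9 from 45929619 to 45936058 on the minus strand. *Tagln* overlaps *Pcsk7* by 108 bases and the antisense gene *Gm48529* by 3627 bases, both on the opposite strand. *Actc1*, *Lmod1* and *Des* also overlap a gene of the opposite strand. The strand setting of the counting is not given in the sources used here.

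The myosin genes differed in their reach. *Myh11* was at 73.7 CPM in mural cells of library 1, from 3 UMIs, and at 827 CPM in those of library 2. It was not detected in Hhip/Aspn cells of library 1 or in adventitial cells of either library, and stood at 38.1 CPM in Hhip/Aspn cells of library 2 and at 0.0432 and 3.58 CPM in alveolar cells. *Myl9*, in contrast, was present in every group. It was at 123 and 678 CPM in mural cells, 79.0 and 82.6 CPM in Hhip/Aspn cells, 66.8 and 46.3 CPM in adventitial cells, and 15.0 and 22.2 CPM in alveolar cells. This order was the same in both libraries, and Hhip/Aspn over alveolar *Myl9* was 2.14 ± 0.35 on the log2 scale (SD, n = 2 libraries).

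Among the genes that bind the thin filament, *Cnn1* was undetected in mural cells of library 1 and at 125 CPM in those of library 2. It was at 0.647 and 19.4 CPM in Hhip/Aspn cells and at most 0.882 CPM in the adventitial and alveolar groups. *Lmod1*, which nucleates actin filaments, was the member whose mural level differed least between the libraries relative to alveolar cells, with 98.3 and 145 CPM in mural cells and 0.519 and 0.796 CPM in alveolar cells (a log2 ratio of 7.54 ± 0.04). The level of library 1 rests on 4 UMIs. *Tpm2* was broad, with 172 and 1107 CPM in mural cells, 107 and 181 CPM in Hhip/Aspn cells, 105 and 132 CPM in adventitial cells, and 55.3 and 83.7 CPM in alveolar cells. It thus had the order of *Acta2* and *Myl9*, over a smaller range, with an adventitial over alveolar log2 ratio of 0.79 ± 0.19.

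Like *Tagln*, *Des* had a higher level in alveolar than in adventitial cells of both libraries. The only other member with this order was *Myh11*, with 1 UMI in alveolar cells of library 1 and none in adventitial cells. *Des* was at 68.1 and 59.1 CPM in alveolar cells and 24.6 and 20.7 CPM in adventitial cells, a log2 ratio of −1.49 ± 0.03 (SD, n = 2 libraries). Hhip/Aspn cells had 22.7 and 50.6 CPM. The mural level of *Des* was 492 and 530 CPM, so that unlike *Tagln* it had its highest level in mural cells of both libraries.

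**Figure D3:**
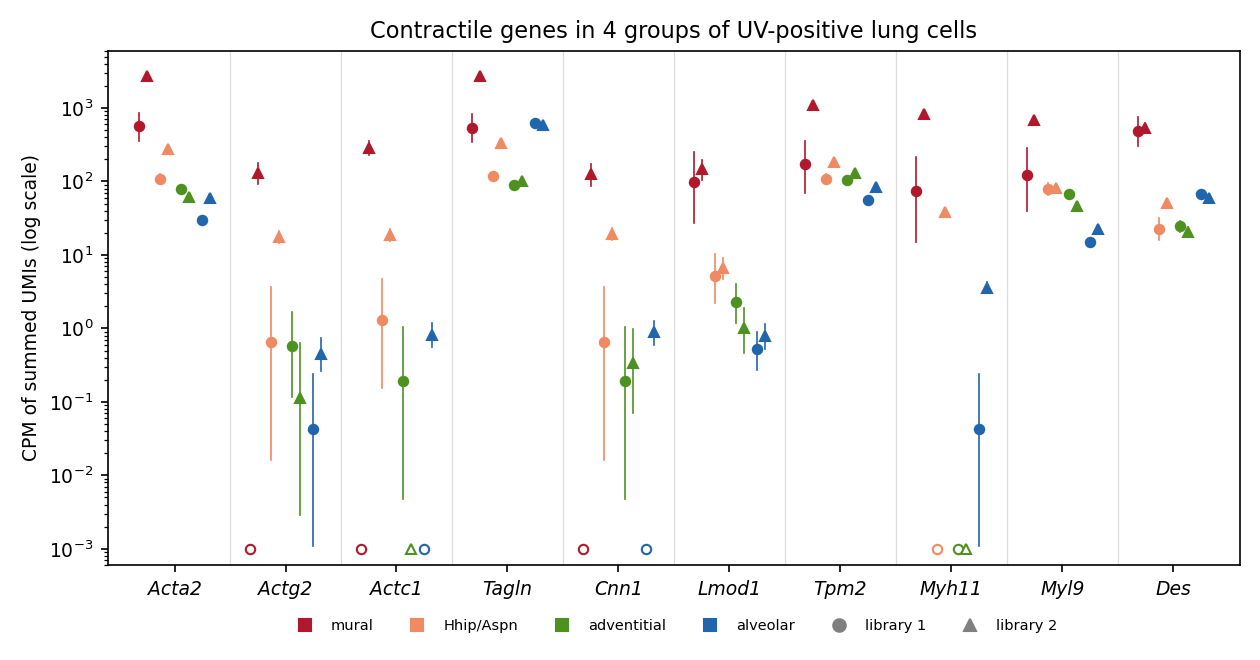
Level of each of the 10 genes in CPM (y axis, log scale) by cell group (colors) and library (circles for library 1, triangles for library 2), with counting intervals of 95% as bars; open symbols at the lower edge mark groups with no UMI. *Tagln* and *Des* have higher points in the alveolar than in the adventitial group, and *Tpm2* and *Myl9* have the reverse in both libraries. *Acta2* has the reverse in library 1, and its intervals overlap in library 2.

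Few cells carried much of the contractile transcripts in library 2. Cells with at least 2 UMIs of *Myh11*, *Cnn1*, *Actg2* and *Actc1* in sum numbered 16 of 47 mural, 4 of 521 Hhip/Aspn, 0 of 794 adventitial and 4 of 5105 alveolar cells in library 2. In library 1 there were 1 of 9 mural, 0 of 239 Hhip/Aspn, 1 of 862 adventitial and 0 of 5548 alveolar cells. These 4 genes define the class, so that their concentration in it is no finding. For the other genes, the 16 mural cells of library 2 held 96.7% of the *Acta2*, 90.7% of the *Tagln*, 91.9% of the *Tpm2* and 77.1% of the *Des* UMIs of their group. The 4 Hhip/Aspn cells held 54.0% of the *Acta2* and 33.7% of the *Tagln* UMIs, and 89.7% of the *Lmod1* UMIs. The 4 alveolar cells held 19.7% of the *Acta2* and 78.6% of the *Lmod1* UMIs, but 1.19% of the *Tagln* and 1.06% of the *Des* UMIs.

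**Figure D4:**
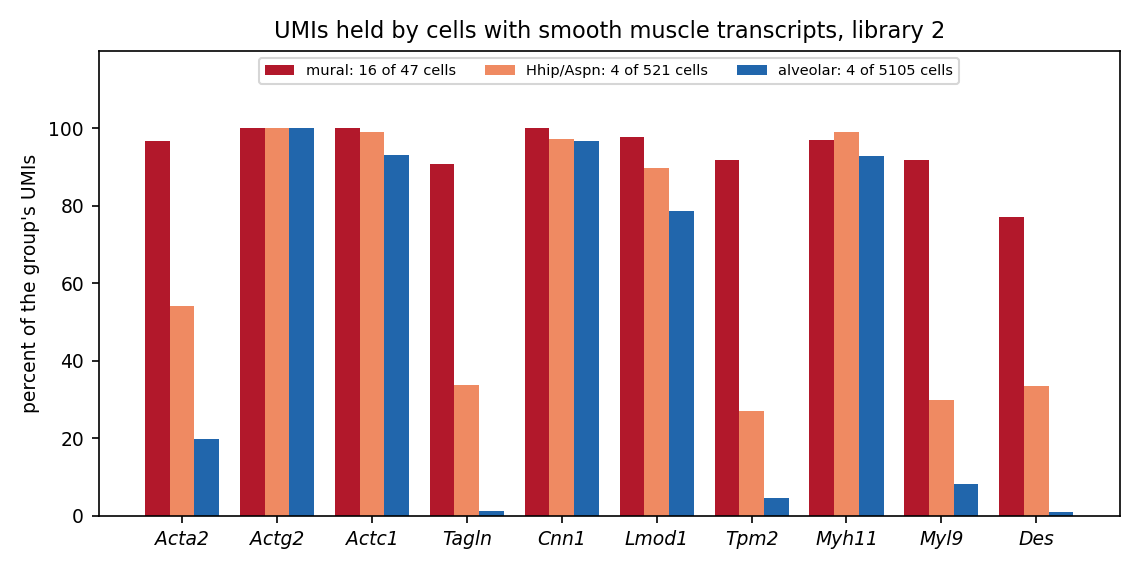
Percent of the UMIs of each gene in its group (y axis) that came from cells with at least 2 UMIs of *Myh11*, *Cnn1*, *Actg2* and *Actc1* in library 2, as bars for mural (16 of 47 cells), Hhip/Aspn (4 of 521) and alveolar (4 of 5105) cells. Alveolar *Tagln* and *Des* stand at 1.19% and 1.06%, against 19.7% for alveolar *Acta2* and 54.0% for Hhip/Aspn *Acta2*.

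Without these cells the levels of library 2 moved toward those of library 1 in the Hhip/Aspn group. *Acta2* was then at 128 CPM and *Tagln* at 219.5 CPM there, against 107 and 117 CPM in library 1. The log2 ratio of *Acta2* in Hhip/Aspn over alveolar cells was 1.64 over both libraries without them. In the alveolar group of library 2, *Acta2* was at 47.7 CPM and *Tagln* at 576 CPM without the 4 cells. The 31 mural cells of library 2 outside the class had 145 CPM of *Acta2*, 414 CPM of *Tagln*, 196 CPM of *Des* and 39.2 CPM of *Myh11*. Mural *Tagln* was below alveolar *Tagln* in library 1, where the mural interval of 339 to 819 CPM holds the alveolar level. Over all 47 mural cells of library 2 it was above, at 2758 CPM against 582 CPM. It was below in library 2 only outside the class. The class is set by other members and held 90.7% of the mural *Tagln* UMIs, so that this lower level is no finding. Mural *Acta2* was above alveolar *Acta2* in each case.

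Over the 8 sums of UMIs (4 groups in 2 libraries), the genes most like *Tagln* by Pearson correlation of log2(CPM + 1), among 3157 genes whose mean over the sums reached 50 CPM, were *Dab2ip* (r = 0.990), *Dipk2a* (0.970), *Syf2* (0.968), *Tln1* (0.956), which encodes talin of focal adhesions, and *Srrm2* (0.951). Those most like *Acta2* were *Nr2f6* (0.951), *Myl9* (0.947), *Myh11* (0.942), *Tpm2* (0.937) and *Arhgap10* (0.933). *Myh11* reached the mean of 50 CPM through mural cells of library 2 alone, and *Lmod1*, with r = 0.954 to *Acta2*, did not reach it. Between *Tagln* and the members the correlation was highest for *Des* (0.851) and was 0.620 for *Acta2*. The sums share libraries and depth, and mural cells of library 2 stand far from the rest, and the members were selected on these levels, so these values are descriptions over 8 points.

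The promoters of contractile genes are known for the CArG box, a motif of 10 bases bound by serum response factor. RefSeq promoters on GRCm38.p6, of 250 bases before to 50 after the start, were given for 7 of the 10 genes. *Tagln*, *Myh11* and *Actg2* had no entry. The box, which reads the same way on both strands, was searched for whole and, after the sequences were seen, with 1 of its 6 central bases off. A whole box was in the promoters of *Actc1* and *Myl9*, against 1.63% of 32851 promoters, and boxes with 1 base off were in those of *Acta2*, *Actc1* and *Myl9*, against 8.50%. *Cnn1*, *Lmod1*, *Tpm2* and *Des* held neither in this window. Windows of 30 bases are shown for the members that hold a box, so that they can be set side by side; capitals mark the box, and positions count from the RefSeq start.
Acta2, 84 bases before the start (chr19:34255438-34255467, minus strand): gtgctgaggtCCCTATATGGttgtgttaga
Acta2, 34 bases before the start (chr19:34255388-34255417, minus strand): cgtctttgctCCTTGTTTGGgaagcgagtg
Actc1, 175 bases before the start (chr2:114053031-114053060, minus strand): ctccctagctCCCTATATGGccattgctct
Actc1, 47 bases before the start (chr2:114052903-114052932, minus strand): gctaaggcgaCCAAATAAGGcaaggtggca
Myl9, 161 bases before the start (chr2:156775293-156775322, plus strand): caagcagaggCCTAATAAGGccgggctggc
Myl9, 99 bases before the start (chr2:156775355-156775384, plus strand): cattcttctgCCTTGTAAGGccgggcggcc

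In GENCODE M21 the *Myl9* windows lie upstream of the gene, the *Actc1* windows in an intron of a longer transcript, and the *Acta2* windows overlap an exon of another *Acta2* transcript. Of the boxes shown, those of *Actc1* at 47 bases and of *Myl9* at 161 bases are whole, and the other 4 have 1 base off. *Actc1* holds 2 more with 1 base off, at 138 and 87 bases before its start. One 10-base sequence occurs in both *Acta2* and *Actc1*. A match is a description of these letters only.

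The wider contractile apparatus was examined through 51 genes outside the 10 members, of which 46 passed the filter on low counts. These were tested by edgeR's quasi-likelihood test on UMIs summed per group and library. The library entered as a block, and Benjamini-Hochberg adjustment ran over 12087 genes. *Myocd*, the smooth muscle coactivator of serum response factor, was not tested: it had 22 UMIs over all groups, 11 of them in mural cells of library 2 and 3 in alveolar cells. *Sorbs2*, *Kcnma1*, *Pln* and *Casq2* were likewise too low.

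In mural over alveolar cells, 13 of the 46 genes rose and 3 fell, where 2.25% of all genes tested rose and 1.31% fell. The median log2 fold change of the list was 0.12, against −0.14 over all genes. The excess of rises over falls was not kept throughout. With mural cells of fewer than 3 fibroblast UMIs, 8 of 44 rose and 10 fell, where 268 and 670 of all 11952 genes did. This alternative rests on 3 mural cells of library 1 and 19 of library 2. After thinning, 5 of 39 rose and 5 fell, where 199 and 316 of all 7454 genes did. By DESeq2, 319 of 417 calls over all genes were higher, against 272 of 430 by edgeR. *Kcnmb1*, the smooth muscle beta subunit of the large calcium-activated potassium channel, was called higher from 1 and 11 UMIs in mural cells against 1 and 6 UMIs in the far larger alveolar group. *Synpo2*, an actin bundling protein, and *Pdlim3*, a protein of the Z line, were called higher from 21 and 5 UMIs in mural cells of library 2, and had none in those of library 1. The fold changes of these 3 genes are not given, since they passed the filter on so few UMIs. *Filip1l* rose by 3.16 ± 0.29 SE (adjusted p = 6.0e-08) and *Csrp2* by 1.83 ± 0.33 (adjusted p = 0.0012), the latter with 24.6 CPM in mural and 28.2 CPM in alveolar cells of library 1. *Tagln2*, the paralog of *Tagln* found outside muscle, fell by 0.82 (SE 0.16, adjusted p = 0.0020), and *Csrp1* and *Fhl1* fell by 0.68 and 0.65.

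In Hhip/Aspn over alveolar cells, 13 genes rose and 5 fell, where 8.13% and 4.17% of all genes did, and the median was 0.22 against 0.01 over all genes. Among those called higher were *Csrp2* (1.63 ± 0.15 SE, adjusted p = 2.0e-08) and *Filip1l* (1.08 ± 0.19, adjusted p = 0.00026), and also *Fhl2*, *Pdlim3* and *Synpo2*. *Fhl2*, *Pdlim3* and *Synpo2* were at low levels in both groups, of at most 6.18 CPM. In Hhip/Aspn cells *Fhl2* rested on 5 and 8 UMIs, *Pdlim3* on 0 and 23 and *Synpo2* on 3 and 36. Their fold changes are not given, since they passed the filter on so few UMIs. *Csrp2*, a LIM protein of smooth muscle, was at 89.3 and 71.2 CPM in Hhip/Aspn cells against 28.2 and 24.0 CPM in alveolar cells. The 5 that fell were *Ppp1r14a* (−0.83 ± 0.14), *Cacna1c* (−0.76 ± 0.16), *Zyx* (−0.56 ± 0.14), *Vcl* (−0.51 ± 0.12) and *Cnn2* (−0.37 ± 0.11).

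In adventitial over alveolar cells, 13 genes rose and 11 fell, where 13.6% and 8.32% of all genes did, and the median was 0.26 against 0.02. *Csrp2* rose by 2.18 ± 0.14 (adjusted p = 2.2e-11), and *Synpo* and the nonmuscle myosin gene *Myh9* rose by 1.07 and 0.78. *Fhl2* was called higher at levels of at most 2.46 CPM (13 and 1 UMIs), and its fold change is likewise not given. Lower in adventitial cells, as *Tagln* was, were *Ppp1r14a*, the inhibitor of myosin phosphatase known as CPI-17 (−1.10 ± 0.14, adjusted p = 1.2e-06), the calcium channel gene *Cacna1c* (−0.91 ± 0.15, adjusted p = 4.3e-05), the calponin gene *Cnn2* (−0.76 ± 0.11, adjusted p = 9.3e-06), *Vcl* (−0.68 ± 0.12) and *Fhl1* (−0.62 ± 0.13). *Ppp1r14a* was at 1350 and 1104 CPM in alveolar cells against 663 and 431 CPM in adventitial cells. The balance of rises and falls turned with the settings. DESeq2 called 4 of 46 higher and 7 lower, where it called 978 and 493 of all 12087 genes. After thinning, 5 of 39 were higher and 9 lower, where 680 and 543 of all 7454 genes were.

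**Figure D5:**
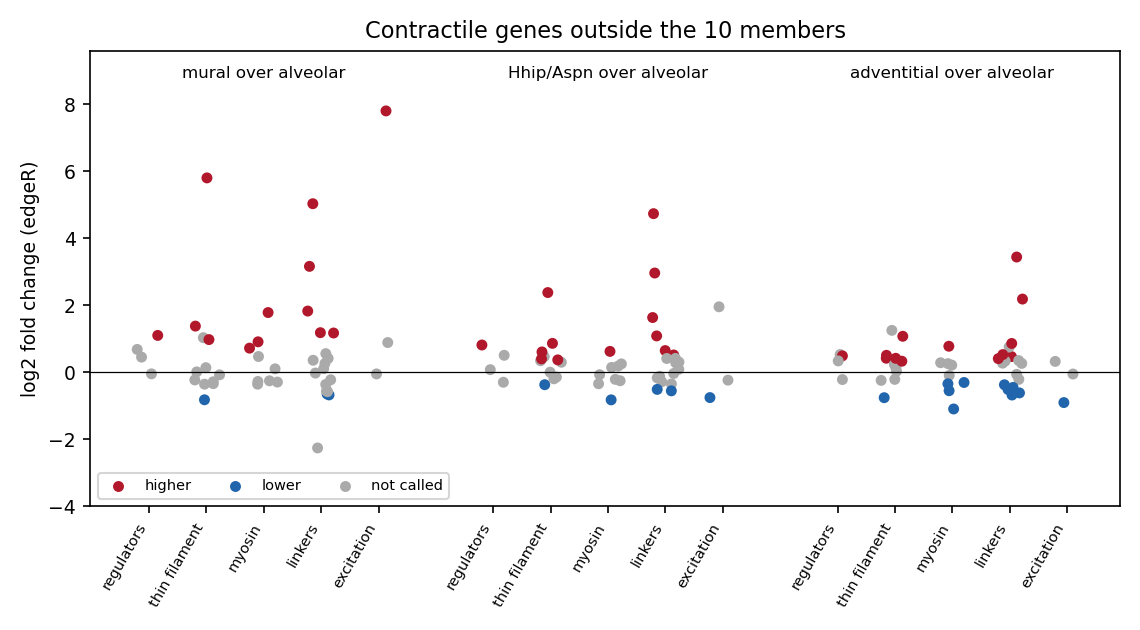
Log2 fold change by edgeR (y axis) of the 46 tested contractile genes outside the 10 members, by role (x axis) and comparison, with red points for genes called higher, blue for lower and grey for neither. In adventitial over alveolar cells 13 are called higher and 11 lower.

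These calls rest on the library block, and without it 3, 0 and 1 of the list were called in the mural, Hhip/Aspn and adventitial comparisons. After thinning of the cells, 10, 5 and 14 of 39 were called. In the Hhip/Aspn comparison 2 were then higher and 3 lower, where 216 and 135 of all 7454 genes were.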

How the data were processed

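Single-cell libraries (10x Genomics Chromium 3′ v3.1) were made by the authors from UV-positive lung cells. UMI counts per gene and barcode, the unit of the deposited matrices, were produced by the authors with Cell Ranger 5.0.1 on mm10 per the labels and file headers, and were used as deposited. No normalization or cell filter was in them beyond Cell Ranger's own. Each library was treated as 1 replicate (n = 2), and nothing given says that they came from separate animals. With the library as a block, p-values weigh the differences between groups against how far they varied between these libraries. Such variation may be technical. This spread was estimated over all 8 sums together.

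Cells were gated by fixed UMI thresholds, and UMIs were summed per group and library (8 sums). The gate left out barcodes with a UMI of *Cdh5*, *Pecam1*, *Epcam* or *Ptprc*. Other endothelial, epithelial and immune transcripts remained in the groups, and no doublet caller was run. CPM were computed from these sums. Sums were tested by edgeR 4.0.16 (TMM, default filter, quasi-likelihood, two-sided, library as block, R 4.3.3), with the 16 gate genes left out. The library was the block because groups of one library share its mice, sort and run; the pairing thus comes from the design. DESeq2 1.42.0 was an alternative. Further alternatives were no filter, no block, a limit of 5% mitochondrial UMIs, thinning before gating, thresholds raised by 1 UMI, cells over the 95th percentile of UMIs left out, mural cells with fewer than 3 fibroblast UMIs, and means over cells. The edgeR step was tested on simulated data. 

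Among the 51 further contractile genes, up to 5 called genes with the largest fold change in each direction per comparison were named, beside the members, gate genes and markers, and the 5 genes most like *Tagln* and *Acta2*. An item that this rule would name is not reported here. The members and lists were chosen with earlier results of these data known. Promoters were from RefSeq (GRCm38.p6), and positions from GENCODE M21 (GRCm38), not necessarily the annotation behind the counts.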

Additional observations from a re-analysis of the deposited data

Results flagged for a closer look

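Some cells with no UMI of *Cdh5*, *Pecam1*, *Epcam* or *Ptprc* met neither the mural nor the fibroblast rule. They entered no comparison (515 in library 1 and 118 in library 2). In both libraries, 4 of the 10 genes were nevertheless above the measured level of every endothelial, epithelial and immune control class there. Control classes were chosen to hold no UMI of the fibroblast or mural rule genes, whereas the cells in no comparison could hold some. *Tagln* was at 117 and 377 CPM in these cells, *Tpm2* at 14.02 and 119 CPM, *Myl9* at 8.18 and 125 CPM, and *Des* at 25.7 and 45.6 CPM. The endothelial class of library 1 had 42 cells and no UMI of *Tpm2*, *Myl9* or *Des*, which allows up to 39.0 CPM. In library 1 the levels of these genes lie below that bound. *Tagln* lies above its own bound in that class, 58.9 CPM. Their median depth was 1773 and 2000.5 UMIs, below that of each of the 4 groups. *Tagln* was held by 82 of the 515 and 20 of the 118 cells, and *Acta2* by 6 and 8 cells.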

How the results depend on the processing

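With 2 libraries, an SD is known with little precision, and a single library allows no test. The mural group of library 1 holds 9 cells and 40690 UMIs, where 3 UMIs amount to 73.7 CPM. Groups were gated on the same cells that were then compared.

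Most values kept their direction under the alternatives, and counts of calls moved most. Genes called in mural over alveolar cells, 430 as reported, were 672 without the filter and 97 without the library as a replicate block. They were 938 with mural cells of fewer than 3 fibroblast UMIs (3 and 19 cells). In Hhip/Aspn over alveolar cells, 1487 as reported, they were 930 by DESeq2, 104 without the block and 351 after thinning. In adventitial over alveolar cells, 2652 as reported, they were 1471 by DESeq2, 204 without the block and 1223 after thinning. Contractile genes called were 3, 0 and 1 without the block, against 16, 18 and 24, and 10, 5 and 14 after thinning. DESeq2 called 11 in the adventitial comparison, 4 higher and 7 lower. The log2 ratio of *Tagln* in adventitial over alveolar cells was −3.03 after thinning and −2.91 as a mean over cells. That of *Acta2* in Hhip/Aspn over alveolar cells was 2.57 with thresholds raised by 1 UMI, 2.30 as a mean over cells and 1.64 without the cells holding smooth muscle transcripts, an alternative chosen after seeing the data. The cause of these shifts was not tested.

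Leaving out 1 library at a time, *Tagln* in mural over alveolar cells ran from −0.20 (without library 2) to 2.24 (without library 1), and so reversed. It ran from −2.41 to −0.82 in Hhip/Aspn and from −2.78 to −2.54 in adventitial over alveolar cells. *Acta2* ran from 4.26 to 5.53, from 1.86 to 2.22 and from 0.04 to 1.41. *Actg2* in adventitial over alveolar cells ran from −2.02 (without library 1, from 1 UMI against 16) to 3.72 (without library 2), and so reversed. Barcodes in both libraries, left out as a further alternative added later, changed no direction.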
